A study of Mus musculus with 6 samples.

Results

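The 9 genes described here encode the ligands and receptors of 3 guidance systems of the gastrulating embryo: apelin (Aplnr, Apln, Apela), CXCL12 (Cxcr4, Cxcl12, Ackr3) and PDGF (Pdgfra, Pdgfrb, Pdgfa). They were taken by gene symbol from a count table of 55487 genes, each matched 1 row, and all 9 were among the 17315 genes with enough counts to test. Bulk poly(A) RNA was sequenced from cells differentiated for 4 days toward primitive macrophage progenitors, the yolk-sac type precursors of macrophages. The 3 Ts1Cje libraries came from embryonic stem cells (ESCs) established from the Ts1Cje mouse, a Down syndrome model that carries a distal segment of chromosome 16 in 3 copies, and the 3 wild-type libraries from ESCs of wild-type mice. Both groups were kept in KnockOut serum replacement with LIF and then received FGF2, BMP-4, activin A and VEGF. The labels number samples by lot; the sources used here do not give the number of ESC lines or clones, their sex or their strain background. The spread behind the p-values is that between these samples and may be technical, and genotype cannot be told apart from the cell lines that carry it.

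The apelin receptor is a G protein-coupled receptor of nascent mesoderm. It is bound by apelin and by ELABELA, the small peptide hormone encoded by Apela, which is made by pluripotent cells and endoderm and acts on cell movement in gastrulation and on heart and vessel formation. CXCL12 draws cells that carry CXCR4, while ACKR3 binds and internalises the same chemokine without classical G protein signalling and so shapes its gradient. PDGF-A, made mostly by epithelia, acts on mesoderm through PDGFRA, whereas PDGFRB marks mural and mesenchymal cells and responds to PDGF-B.

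Libraries held 16577065 to 19010856 counts. The tested genes of the triplicated segment of chromosome 16 had a median log2 fold change of 0.48 (76 genes, of which 48 rose, 6 fell and 22 did not pass); none of the 9 guidance genes lies there. Wild-type replicate 1 stood apart on the second principal component, at 39.4 against -9.83 and -23.7 for wild-type replicates 2 and 3. The defining leukocyte gene Ptprc was at 0 counts in all 6 libraries, and Spi1, a master factor of myeloid cells, had 11 counts over the Ts1Cje libraries and 9 over the wild-type libraries. Csf1r, whose product binds macrophage growth factor, had 10.1 ± 1.12 TPM in Ts1Cje and 7.98 ± 0.982 TPM in wild-type (SD, n = 3 each). It was not called higher in Ts1Cje at an adjusted p of 0.05 (edgeR test described below).

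Promoter sequence is shown for 2 pairs that bind a shared partner and in which one gene passed the test and the other did not, Apela with Apln and Ackr3 with Cxcr4. RefSeq promoters (GRCm38.p6) were matched for 7 of the 9 genes; Aplnr and Pdgfrb have no entry. Each run is the 250 bases before the annotated start site, 5′ to 3′ on the gene's strand. Capitals mark matches, on either strand, to any of the motifs searched. These were ACGTG as the hypoxia response core, AGATAA for factors of the GATA family, TGTTTAC for forkhead factors, and GGTGTGA for T-box factors. The others were CCGGAAG for ETS factors, ACAAAG for SOX factors and TATAAA as the TATA box. The regions are chr8:65037337-65037586 (minus strand) for Apela, chrX:48034854-48035103 (minus) for Apln, chr1:90203730-90203979 (plus) for Ackr3 and chr1:128592300-128592549 (minus) for Cxcr4.
Apela: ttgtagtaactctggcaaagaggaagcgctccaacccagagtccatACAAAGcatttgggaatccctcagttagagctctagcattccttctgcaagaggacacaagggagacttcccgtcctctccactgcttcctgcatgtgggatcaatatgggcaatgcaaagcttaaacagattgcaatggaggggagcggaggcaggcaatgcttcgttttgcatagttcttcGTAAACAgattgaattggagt
Apln: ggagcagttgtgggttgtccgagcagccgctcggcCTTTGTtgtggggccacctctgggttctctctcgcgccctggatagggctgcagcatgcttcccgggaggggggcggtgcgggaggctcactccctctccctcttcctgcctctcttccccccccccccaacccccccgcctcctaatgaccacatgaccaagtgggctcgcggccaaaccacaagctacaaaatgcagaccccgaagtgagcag
Ackr3: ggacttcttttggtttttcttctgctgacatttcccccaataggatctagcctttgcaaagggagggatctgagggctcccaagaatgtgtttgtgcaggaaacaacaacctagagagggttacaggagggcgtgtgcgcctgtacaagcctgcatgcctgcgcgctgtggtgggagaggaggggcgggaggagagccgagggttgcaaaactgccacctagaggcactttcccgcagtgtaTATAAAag
Cxcr4: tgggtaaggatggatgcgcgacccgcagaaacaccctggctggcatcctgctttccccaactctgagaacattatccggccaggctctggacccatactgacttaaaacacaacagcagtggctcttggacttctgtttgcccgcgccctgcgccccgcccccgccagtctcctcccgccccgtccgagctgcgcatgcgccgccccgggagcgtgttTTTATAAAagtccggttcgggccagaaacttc

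The forkhead letters occurred upstream of Apela alone among the 7 matched genes, on the minus strand with their first base at -21 from the start site; 3.17% of 32851 RefSeq promoters hold them in a window of this length. The SOX letters occurred upstream of Apela (-204) and Apln (-215), and 16.5% of all promoters hold them. TATA letters stood at -8 upstream of Ackr3 and, as 2 overlapping matches on opposite strands, at -32 and -30 upstream of Cxcr4, against 12.4% of all promoters. No match to the hypoxia, GATA, T-box or ETS letters was found in any of the 8 windows, 2 of which belong to Pdgfa. The shares among all promoters are 16.6%, 9.99%, 3.33% and 6.91%. The Apela window was the least GC-rich of the 4 printed, at 48.0% and 5 CpG, against 65.2% and 12 CpG for Apln.

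Among the 9 genes, 1 was higher in Ts1Cje (Apela), 3 were lower (Aplnr, Ackr3, Pdgfrb) and 5 did not pass the test at an adjusted p of 0.05 (edgeR's quasi-likelihood test, Benjamini-Hochberg adjustment over all tested genes). Across all tested genes 43.8% were called, 23.3% higher and 20.5% lower in Ts1Cje, so 4 of 9 is a share near the background. The median log2 fold change was -0.01 over the 9 genes and -0.01 over all tested genes. Single changes differed in size. A log2 fold change as large as that of Pdgfrb, in either direction, was seen in 0.456% of tested genes. The shares were 5.02% for Apela, 7.76% for Ackr3 and 12.8% for Aplnr. For the genes that did not pass they were 23.1% for Apln, 48.2% for Cxcr4, 71.1% for Pdgfa, 81.1% for Pdgfra and 98.5% for Cxcl12. These shares are a description only, because the 9 genes were chosen with earlier results of these data known. In 4 genes the libraries of the genotypes did not overlap, and these are the 4 that were called; 54.5% of all tested genes had no overlap.

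**Figure D1:**
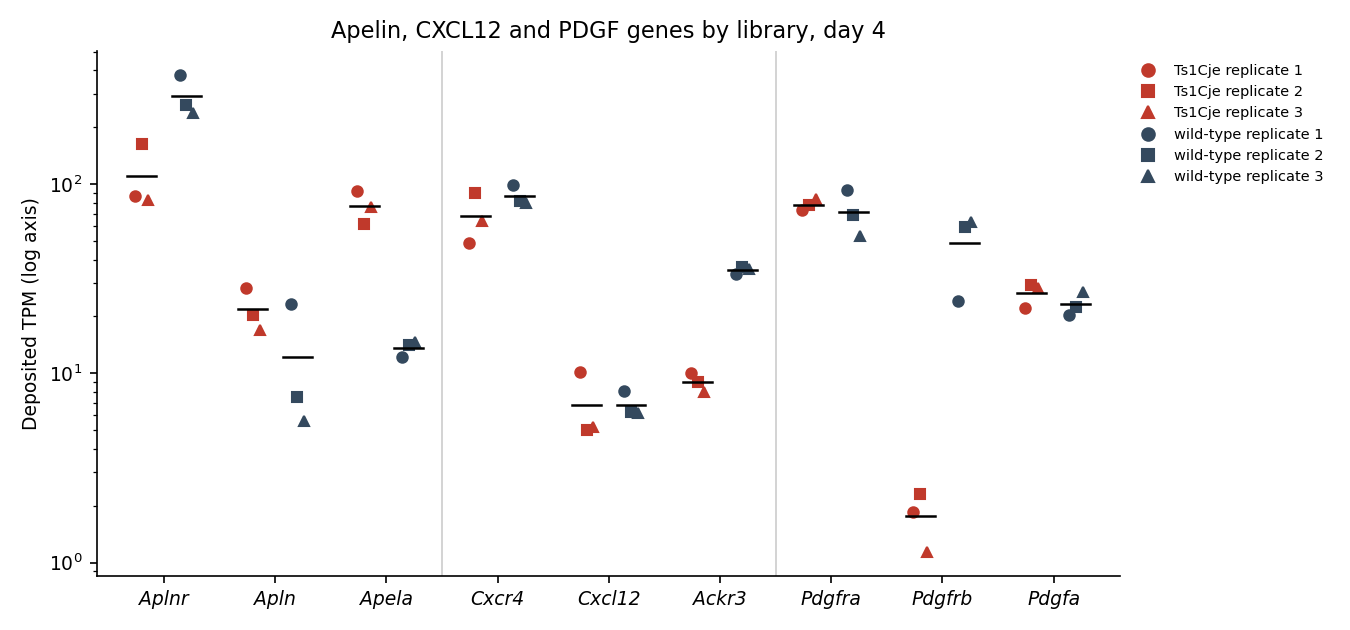
Deposited TPM (log axis) of the 9 genes in each library, grouped by system, with Ts1Cje in red, wild-type in blue, and a line at each group mean (n = 3). Apela libraries lie at 61.4 to 92.0 TPM in Ts1Cje, above all wild-type libraries, while the Ts1Cje libraries of Aplnr, Ackr3 and Pdgfrb lie below all wild-type libraries.

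**Figure D2:**
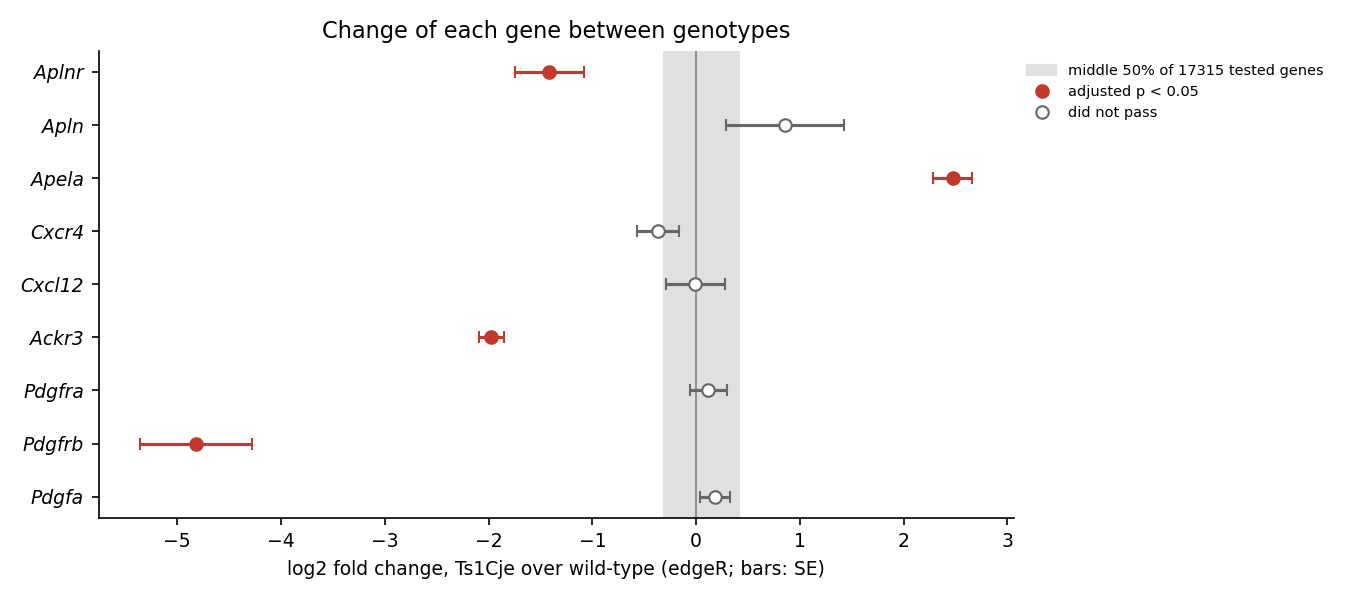
Log2 fold change of each gene, Ts1Cje over wild-type, with its SE. Filled points passed an adjusted p of 0.05, and the grey band holds the middle 50% of the 17315 tested genes; Pdgfrb lies at -4.82 and Apela at 2.47.

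Aplnr, the receptor of the apelin system (ENSMUSG00000044338, mm10, chromosome 2, 85136225 to 85139923, plus strand), fell in Ts1Cje. It had 86.3, 164 and 82.5 TPM in Ts1Cje replicates 1 to 3, against 379, 264 and 238 TPM in wild-type. All Ts1Cje libraries were below all wild-type libraries, with replicate 2 the highest of the Ts1Cje group and replicate 1 the highest of the wild-type group. The log2 fold change was -1.41 ± 0.33 (SE), or 2.66-fold lower, with an adjusted p of 0.0214. The call was lost without Ts1Cje replicate 1 (-1.27, adjusted p = 0.0791), Ts1Cje replicate 3 (-1.24, 0.0529) or wild-type replicate 1 (-1.21, 0.0695) and with no filter on low counts (-1.41, 0.0700).

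The summed level of 14 genes of nascent and lateral mesoderm, none of them among the 9, ordered the 6 libraries exactly as Aplnr did. The sums were 618, 849 and 470 TPM in Ts1Cje replicates 1 to 3 and 2620, 2299 and 2219 TPM in wild-type. Hand1 alone gave 28.1 ± 13.2 TPM of the sum in Ts1Cje and 945 ± 218 TPM in wild-type. The list of blood and endothelium genes gave the same order, from 62.6 to 126 TPM in Ts1Cje and from 472 to 496 TPM in wild-type. This likeness was seen after the values were known, over 6 libraries that fall into 2 groups. The part of these cell types in the Aplnr result was not tested, and in bulk RNA fewer cells of a type and less RNA per cell cannot be told apart.

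Of the mesoderm list 8 of 14 genes fell, 0 rose and 6 did not pass, with a median log2 fold change of -1.85. Hand1, a factor of lateral and extraembryonic mesoderm, fell to 28.1 ± 13.2 TPM in Ts1Cje, against 945 ± 218 TPM in wild-type (log2 fold change -5.10 ± 0.42). Msgn1, a factor of presomitic mesoderm (-4.04 ± 0.78), Mesp2, a segmentation factor (-1.68 ± 0.44), and Snai1, a factor of the epithelial to mesenchymal transition (-1.15 ± 0.26), fell as well. Without Ts1Cje replicate 1, 4 genes of this list fell. Of 16 blood and endothelium genes, 13 were tested, 9 fell and 2 rose (median -2.65). The receptor gene Tie1 (-5.07 ± 0.65) and the ETS factor gene Fli1 (-4.44 ± 0.31) fell, and the blood factor genes Gata1 (2.78 ± 0.47) and Runx1 (1.80 ± 0.29) rose. Runx1 itself lies in the triplicated segment, and the part of its extra copy in this rise was not tested.

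Apela, the gene of the ELABELA peptide (ENSMUSG00000079042, chromosome 8, 65028417 to 65037336, minus strand), was the only one of the 9 that rose. It had 92.0, 61.4 and 75.6 TPM in Ts1Cje replicates 1 to 3, against 12.2, 14.1 and 14.7 TPM in wild-type. The groups did not overlap, and the wild-type libraries lay close together. The log2 fold change was 2.47 ± 0.19 (SE), 5.55-fold higher, with an adjusted p of 8.47e-06, and it ranged from 2.31 to 2.62 on leaving out single libraries. Gm45886, a processed transcript on the same strand that shares 8680 bp with the Apela locus, had 0 counts in both groups. How reads shared by both genes were counted is not given, so the 0 does not show that Gm45886 was silent.

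Apln, the apelin gene (ENSMUSG00000037010, chromosome X, 48025146 to 48034853, minus strand), did not pass. It had 28.3, 20.3 and 17.0 TPM in Ts1Cje replicates 1 to 3, against 23.4, 7.47 and 5.62 TPM in wild-type. Wild-type replicate 1 alone lay within the Ts1Cje range. Its estimate was a log2 fold change of 0.86 ± 0.57 (SE), with an adjusted p of 0.286 and an approximate 95% interval of -0.73 to 2.44. Without wild-type replicate 1 it was 1.72 ± 0.24 and passed (adjusted p = 0.000322).

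Summed endoderm and epiblast markers, like Apela, were higher in every Ts1Cje library than in every wild-type library. Within wild-type, replicate 1 was the lowest for Apela and the highest for each of these sums. Within Ts1Cje the primitive and visceral endoderm sums had the order of Apela, and the definitive endoderm and epiblast sums did not. All 13 genes of the definitive endoderm list rose, with a median log2 fold change of 2.81. Their summed level was 4236 to 5800 TPM in Ts1Cje and 879 to 1211 TPM in wild-type. The list also holds the keratin genes Krt8 and Krt18, the claudin genes Cldn6 and Cldn7, and Epcam. Whether it tells definitive endoderm apart from visceral endoderm or other epithelia was not tested. Cer1, a secreted NODAL and BMP antagonist (6.88 ± 0.53), and Foxa2, a forkhead factor of endoderm (4.41 ± 0.24), had the largest increases of this list, and Gata6 (0.69 ± 0.07) and Hhex (1.15 ± 0.17) the smallest. Of 13 primitive and visceral endoderm genes 12 rose and 1 fell (median 2.42; 1255 to 1756 TPM in Ts1Cje, 369 to 473 TPM in wild-type). The endocytic receptor gene Lrp2 (2.93 ± 0.34) and the factor genes Hnf4a (2.83 ± 0.20) and Gata4 (0.55 ± 0.08) rose, and Sox7 (-1.12 ± 0.23) fell.

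Of 12 epiblast and stem cell genes 10 rose, 0 fell and 2 did not pass (median 2.38). Among them were the epiblast growth factor gene Fgf5 (5.51 ± 0.49), the factor gene Otx2 (3.75 ± 0.29), Klf4, a factor of the naive stem cell state (1.93 ± 0.23), and Pou3f1 (1.44 ± 0.21). Their sum was 2676, 1919 and 1911 TPM in Ts1Cje replicates 1 to 3, and 756, 315 and 330 TPM in wild-type. Replicate 1 was the highest of its group in both genotypes, as it was for Apln. Of 8 neuroectoderm genes 4 were tested, and Sox1, Pax6, Zic1 and Neurog2 had too few counts to test. The 3 that rose were Six3 (5.56 ± 0.80), Sox3 (2.93 ± 0.38) and Hesx1. Hesx1 had 107 counts over the Ts1Cje libraries and 3 over the wild-type libraries. Whether these 3 genes tell neuroectoderm apart from epiblast or endoderm was not tested. The part of these cell types in the Apela and Apln values was not tested.

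**Figure D3:**
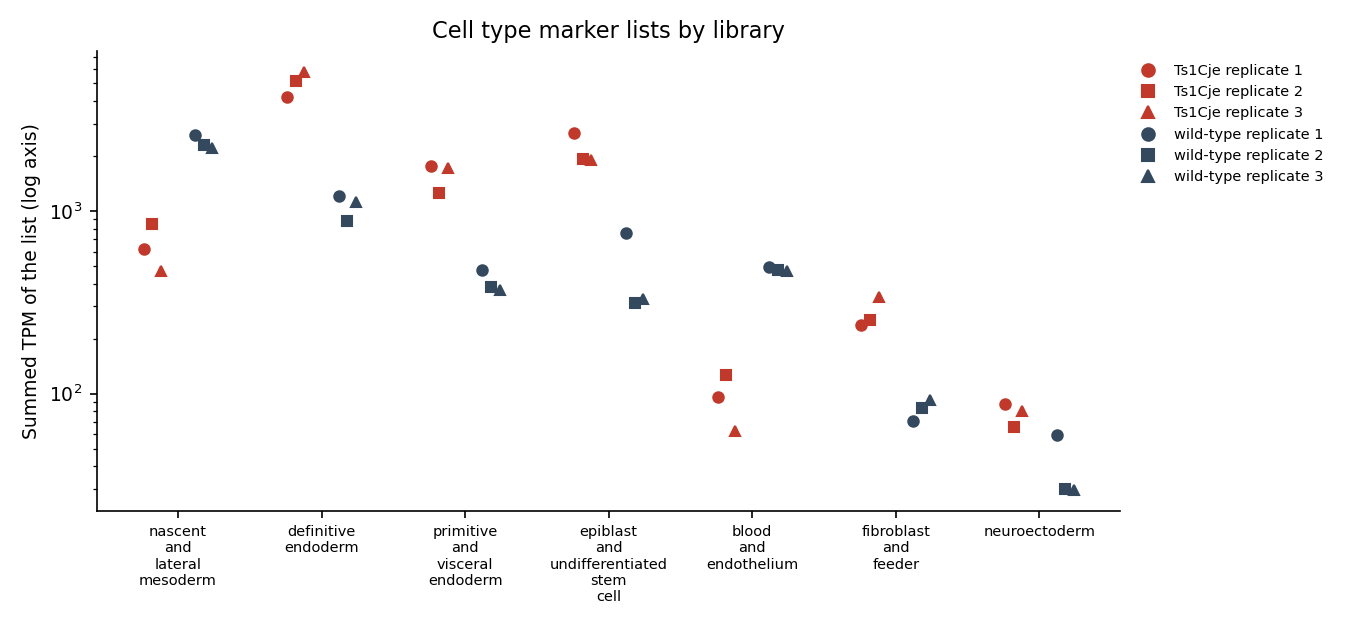
Summed deposited TPM (log axis) of 7 marker lists in each library, with Ts1Cje in red left of wild-type in blue. Mesoderm and blood and endothelium sums are lower in all Ts1Cje libraries, and the sums of the other lists are higher in all Ts1Cje libraries. Most of the fibroblast and feeder sum in Ts1Cje is Pdpn (266 TPM, against 34.2 in wild-type). Of the 7 tested genes of that list 5 fell and 1 rose.

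In the CXCL12 system the scavenging receptor gene fell, and values for the signalling receptor and the ligand did not pass. Ackr3 (ENSMUSG00000044337, chromosome 1, 90203980 to 90216751, plus strand) had 10.1, 8.97 and 7.98 TPM in Ts1Cje replicates 1 to 3, against 33.6, 36.5 and 35.5 TPM in wild-type. The libraries of each group lay close together, and all Ts1Cje libraries were below all wild-type libraries. Ackr3 had a log2 fold change of -1.97 ± 0.12 (SE), or 3.93-fold lower, with an adjusted p of 2.99e-06. It ranged from -2.07 to -1.89 on leaving out single libraries.

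Cxcr4, the receptor that CXCL12 signals through (ENSMUSG00000045382, chromosome 1, 128588199 to 128592293, minus strand), had 48.9, 90.0 and 63.9 TPM in Ts1Cje replicates 1 to 3, against 99.0, 81.3 and 79.3 TPM in wild-type. Ts1Cje replicate 2 lay among the wild-type libraries and replicates 1 and 3 below them. Its log2 fold change of -0.37 ± 0.20 (SE) had an adjusted p of 0.178 and an approximate 95% interval of -0.92 to 0.19. It passed without Ts1Cje replicate 2 (-0.61, adjusted p = 0.00912) and with no filter on low counts (-0.37, 0.00339).

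Cxcl12, the chemokine gene (ENSMUSG00000061353, chromosome 6, 117168535 to 117181367, plus strand), was the lowest of the 9 in wild-type. It had 10.2, 5.01 and 5.21 TPM in Ts1Cje replicates 1 to 3, against 8.11, 6.27 and 6.16 TPM in wild-type. Ts1Cje replicate 1 held the highest value, and the other Ts1Cje libraries the lowest. The log2 fold change was -0.01 ± 0.28 (SE), with an adjusted p of 0.984. The approximate 95% interval was -0.80 to 0.78, so a change within it, in either direction, remains compatible with these data.

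In the PDGF system the gene of one receptor fell, and values for the other receptor and its ligand did not pass. Pdgfrb (ENSMUSG00000024620, chromosome 18, 61045150 to 61085061, plus strand) had 1.85, 2.31 and 1.14 TPM in Ts1Cje replicates 1 to 3, against 24.0, 59.6 and 63.5 TPM in wild-type. Every Ts1Cje library was below every wild-type library, and wild-type replicate 1 was the lowest of its group. This amounts to a log2 fold change of -4.82 ± 0.54 (SE), 28.2-fold lower, with an adjusted p of 0.00126, resting on 160 counts over the Ts1Cje libraries and 4638 over the wild-type libraries. Without wild-type replicate 1 the log2 fold change was -5.16 ± 0.18.

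Fibroblasts express Pdgfrb, so 12 fibroblast and feeder genes were examined beside it. Dcn had 5 counts over the Ts1Cje libraries and 3 over the wild-type libraries, Postn 9 and 15, Col3a1 3 and 23, Lum 2 and 0, and Fap 4 and 0. These 5 genes were thus at or near 0, whereas Col1a1 had 14 counts over the Ts1Cje libraries and 1373 over the wild-type libraries. The part of such cells in the Pdgfrb result was not tested. Of the 7 genes of the list that were tested, 5 fell and 1 rose (median -2.14), among them the collagen genes Col1a1 (-6.55 ± 1.27) and Col1a2 (-0.95 ± 0.21) and Twist2 (-4.52 ± 0.69), which fell, and Pdpn (2.96 ± 0.20), which rose. The summed level was 238 to 340.0 TPM in Ts1Cje and 71.2 to 92.4 TPM in wild-type. Pdpn made up most of it in Ts1Cje (mean 266 TPM) but not in wild-type (mean 34.2 TPM).

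Pdgfra, the receptor of PDGF-A (ENSMUSG00000029231, chromosome 5, 75152292 to 75198215, plus strand), had 72.7, 77.3 and 83.3 TPM in Ts1Cje replicates 1 to 3, against 92.8, 68.8 and 53.2 TPM in wild-type. The Ts1Cje libraries lay within the wild-type range. The log2 fold change was 0.12 ± 0.18 (SE), with an adjusted p of 0.632 and an approximate 95% interval of -0.38 to 0.61. Without wild-type replicate 1 it was 0.33 ± 0.10 and passed (adjusted p = 0.0205), and without wild-type replicate 3 it was -0.05. Antisense reads cannot be told apart where the counting strand is not given, but the overlapping Gm42802 and Gm42803 had 67 and 60 counts over the Ts1Cje libraries and 98 and 33 over the wild-type libraries, against 13082 and 12292 for Pdgfra.

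The next receptor tyrosine kinase genes on chromosome 5 were looked at after the value of Pdgfra was known. Kit (75574916 to 75656722), the stem cell factor receptor gene, rose to 60.1 ± 7.41 TPM in Ts1Cje, against 21.4 ± 7.32 TPM in wild-type (log2 fold change 1.47 ± 0.30, adjusted p = 0.0106). Kdr (75932827 to 75978458), the VEGF receptor gene of blood and vessel precursors, fell to 25.3 ± 13.1 TPM in Ts1Cje, against 157 ± 5.84 TPM in wild-type (-2.65 ± 0.41, adjusted p = 0.00478). The 3 neighbours thus had values near 0, above 0 and below 0. Over all 52 other tested genes within 5 Mb of Pdgfra the median was -0.18. For the 4 called genes the medians of the genes within 5 Mb were between -0.07 (Aplnr) and 0.06 (Pdgfrb).

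Pdgfa, the ligand gene (ENSMUSG00000025856, chromosome 5, 138976014 to 138997370, minus strand), had 22.2, 29.3 and 28.3 TPM in Ts1Cje replicates 1 to 3, against 20.3, 22.5 and 26.9 TPM in wild-type. The groups overlapped. Pdgfa had a log2 fold change of 0.18 ± 0.15 (SE), with an adjusted p of 0.354 and an approximate 95% interval of -0.23 to 0.59. The antisense gene 6330403L08Rik shares 2315 bp with it and had 268 counts over the Ts1Cje libraries and 202 over the wild-type libraries, against 1386 and 1248 for Pdgfa, so part of either count may belong to the other gene.

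Ordered by mean TPM, which is per length, Ts1Cje libraries had Aplnr first (111 ± 45.9 TPM), then Pdgfra (77.8 ± 5.30), Apela (76.3 ± 15.3) and Cxcr4 (67.6 ± 20.8), and no neighbours among these 4 were separated beyond their spread. Pdgfa and Apln followed without separation from each other, then Ackr3 and Cxcl12, also not separated, and Pdgfrb (1.77 ± 0.590 TPM) came last, below every Cxcl12 library. In wild-type, Aplnr (294 ± 75.3 TPM) stood above Cxcr4, Pdgfra, Pdgfrb and Ackr3, a run in which no neighbours were separated. Pdgfa lay below Ackr3, and Apela (13.7 ± 1.30), Apln (12.2 ± 9.75) and Cxcl12 (6.84 ± 1.09) came last. Every Apela library was below every Pdgfa library, while Apln overlapped both Pdgfa and Apela, and Cxcl12 overlapped Apln. Apela was thus at rank 3 in Ts1Cje and rank 7 in wild-type, and Pdgfrb at rank 9 in Ts1Cje and rank 4 in wild-type.

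Ratios of TPM within each library compared partners of one system. The 6 ratios were tested with 2-sided exact permutation tests over the 6 libraries, in which 3 against 3 cannot give a p below 0.1. Apela exceeded Apln in every Ts1Cje library, by 3.24, 3.02 and 4.42 times, whereas the ratio was 0.525, 1.87 and 2.59 in wild-type replicates 1 to 3 (difference of mean log2 ratios 1.36; exact p = 0.1, adjusted over the 6 pairs p = 0.15). That difference was 0.67 without wild-type replicate 1, and ranged from 0.67 to 1.83 on leaving out single libraries. Receptor over ligand, Aplnr over Apela, was 0.938, 2.66 and 1.09 in Ts1Cje and 30.8, 18.6 and 16.05 in wild-type (difference -3.91, exact p = 0.1, adjusted p = 0.15). The receptor's TPM exceeded that of Apela in Ts1Cje replicates 2 and 3 and in all wild-type libraries.

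Cxcr4 over Ackr3 was 4.81, 9.93 and 7.92 in Ts1Cje and 2.94, 2.22 and 2.23 in wild-type, without overlap (difference of log2 ratios 1.57, exact p = 0.1, adjusted p = 0.15). Cxcr4 over Cxcl12 was 4.76, 17.6 and 12.0 in Ts1Cje and 12.1, 12.8 and 12.7 in wild-type (difference -0.32, exact p = 0.7, adjusted p = 0.84). The wild-type libraries were almost identical in this ratio, while Ts1Cje replicate 1 was low and replicate 2 high. Pdgfra over Pdgfrb was 37.3, 32.1 and 67.1 in Ts1Cje and 3.85, 1.15 and 0.838 in wild-type (difference 4.80, exact p = 0.1, adjusted p = 0.15). Pdgfra over Pdgfa was 3.27, 2.63 and 2.94 in Ts1Cje and 4.55, 3.05 and 1.97 in wild-type (difference -0.04, exact p = 0.9, adjusted p = 0.9).

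**Figure D4:**
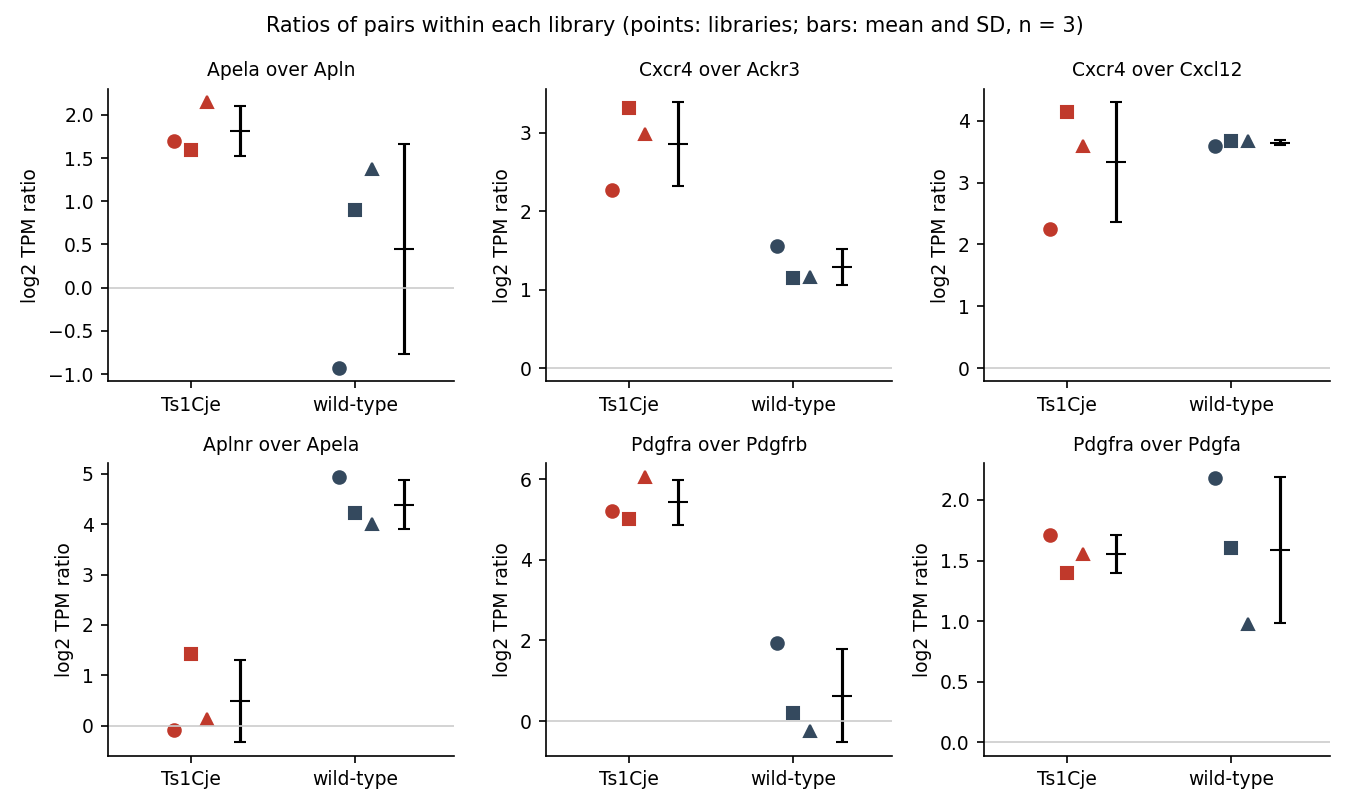
Log2 ratio of TPM (pseudocount 0.1) of 6 pairs within each library; points are libraries, and bars give the mean and SD (n = 3). The groups do not overlap for Apela over Apln, Cxcr4 over Ackr3, Aplnr over Apela and Pdgfra over Pdgfrb, and overlap for the pairs of Cxcr4 with Cxcl12 and Pdgfra with Pdgfa.

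The tested genes most like each of the 9 were taken as the 3 protein-coding genes with the smallest root mean square difference in centred log2 CPM over the 6 libraries, among 13813. Among the 3 for Aplnr were Boc, a hedgehog co-receptor gene (difference 0.10), and Fn1, the fibronectin gene (0.11). Ackr3 was most like Vldlr, a lipoprotein and reelin receptor gene (0.031), Pcdhb22 (0.065) and Gas7 (0.084). Apela was most like Nxf7 (0.093), Pla2r1 (0.13) and Ang (0.14). Among the 3 for Pdgfrb were Col9a1, a collagen chain gene (0.15), and Rgs5, a regulator of G protein signalling found in pericytes (0.35). For the genes that did not pass, the closest included Slc5a7 and Epha8 for Apln, Arhgap4, Fes and Fjx1 for Cxcr4, Jakmip2, Gnal and Nutf2-ps1 for Cxcl12, Slc25a14, Nedd4l and Itgae for Pdgfra, and Micall1, Ppp1r35 and Washc3 for Pdgfa.

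The wider pathways changed in both directions. Of 20 other PDGF ligands and receptor-proximal signalling genes, 19 were tested, 5 rose, 6 fell and 8 did not pass (median log2 fold change -0.12). Pdgfb, the main ligand gene of PDGFRB, fell to 1.52 ± 0.336 TPM in Ts1Cje, against 9.28 ± 1.95 TPM in wild-type (-2.61 ± 0.25, adjusted p = 3.07e-05), the same direction as its receptor. Plcg1, a phospholipase that docks on active receptors, fell (-0.79 ± 0.09), and Plat, the plasminogen activator that cleaves PDGF-C (2.92 ± 0.16), and Pik3cb, a lipid kinase subunit gene (1.50 ± 0.12), rose.

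Of 25 G protein, arrestin and receptor kinase genes 24 were tested, 7 rose, 9 fell and 8 did not pass (median -0.14). Rgs16, which shortens G protein signals (2.64 ± 0.30), and Pik3r5 (2.46 ± 0.51) rose, and the G protein subunit gene Gnao1 (-2.21 ± 0.18) and Rgs4 (-1.55 ± 0.40) fell. Of 25 genes of the motility relay downstream of chemokine receptors 22 were tested, 6 rose, 7 fell and 9 did not pass (median -0.09). Elmo1, a subunit of a RAC activator (1.29 ± 0.09), and the adhesion scaffold gene Bcar1 (0.83 ± 0.08) rose, and the actin regulator genes Dock8 (-2.10 ± 0.15) and Was (-3.04 ± 0.49) fell.

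Of 21 genes for ligand processing and other partners of these receptors 13 were tested, 4 rose, 6 fell and 3 did not pass (median -0.26). Dpp4, a protease that inactivates CXCL12, rose to 43.6 ± 9.50 TPM in Ts1Cje, against 8.61 ± 2.54 TPM in wild-type (2.34 ± 0.25, adjusted p = 0.000342), while Cxcl12 itself did not pass. Adm, the gene of adrenomedullin, a peptide that ACKR3 also takes up, rose (2.82 ± 0.62), its receptor gene Calcrl fell (-2.23 ± 0.43), and Ackr1, another scavenging receptor gene, fell (-1.50 ± 0.50). The chemokine receptor genes Cxcr1 and Cxcr3 were at 0 counts in all 6 libraries. Without Ts1Cje replicate 2, 3 genes of this list fell, and without wild-type replicate 2, 2 fell.

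Of 34 other guidance genes 32 were tested, 11 rose, 15 fell and 6 did not pass (median -0.36). Unc5c, a netrin receptor gene, fell to 1.55 ± 0.900 TPM in Ts1Cje, against 51.2 ± 9.91 TPM in wild-type (-5.08 ± 0.44), and S1pr3, a receptor gene for sphingosine 1-phosphate, fell by 4.02 on the log2 scale (SE 0.40). Ntn1, the netrin gene, rose to 63.3 ± 13.3 TPM in Ts1Cje, against 10.2 ± 5.90 TPM in wild-type (2.63 ± 0.45), and Epha2, an ephrin receptor gene, rose (2.53 ± 0.37). In all, 33 of the 110 tested genes of these 5 lists rose, 43 fell and 34 did not pass, where 23.3% of all tested genes were called higher and 20.5% lower, with a median log2 fold change of -0.01.

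**Figure D5:**
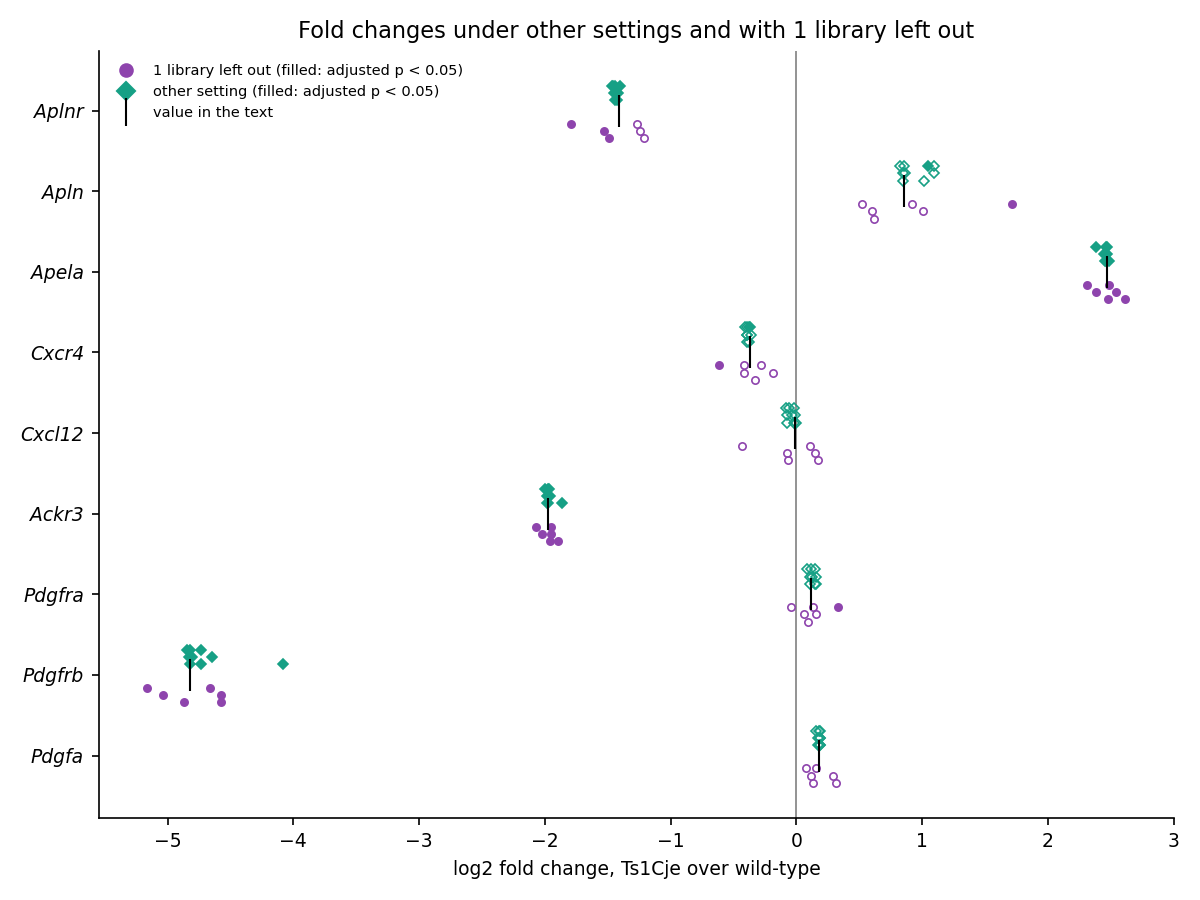
Log2 fold change of the 9 genes (black line, as in the text), with 1 library left out (circles) and under other tests, scalings and filters (diamonds); filled symbols passed an adjusted p of 0.05. Apela, Ackr3 and Pdgfrb passed in every fit, while Aplnr passed in some and Apln ranged from 0.52 to 1.72.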

How the data were processed

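Of the 2 tables the authors deposited, 1 holds raw counts of reads by Ensembl gene and the other TPM. The submitters' processing notes name HISAT2 2.1.0, FastQC 0.11.7, featureCounts 1.6.3 and Trimmomatic 0.38, and the build mm10. Not given there are settings, the order of steps, strandedness of counting and what was done with multi-mapped reads. Coordinates are those of the deposited tables. The members and lists were chosen with earlier results of these data known.

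Counts were analysed in R 4.3.3 with edgeR 4.0.16: filterByExpr (minimum count 10, minimum total 15), TMM scaling, robust quasi-likelihood test of Ts1Cje over wild-type without covariates, and Benjamini-Hochberg adjustment over all 17315 genes kept (threshold 0.05). The SE was taken as the size of the log2 fold change divided by the root of F. The approximate 95% interval uses 4 degrees of freedom. Levels are deposited TPM, as mean ± SD over 3 libraries. Pair ratios used a pseudocount of 0.1. Named genes were all 9 members, the 2 highest and 2 lowest called fold changes of each list, and the 3 most alike genes; a few genes this rule names are not reported here. Alternatives were limma 3.58.1, DESeq2 1.42.0, other scalings, filters and pseudocounts, a lot block, and leaving out each library.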

Additional observations from a re-analysis of the deposited data

How the results depend on the processing

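Apela, Ackr3 and Pdgfrb kept direction and call in all 15 alternative fits, and Aplnr kept its direction in all of them. Pdgfa passed in none. Of the count of called genes over the whole table, 3355 to 4260 were higher and 2684 to 3782 lower on leaving out single libraries. Among the 9 genes, 1 to 3 were called higher and 2 to 4 lower on leaving out single libraries; the 3 were Apela, Apln and Pdgfra, without wild-type replicate 1. Cxcl12 changed sign to 0.18 and 0.15 without Ts1Cje replicates 2 and 3, 0.11 without wild-type replicate 1 and 0.00014 when genes under a mean log2 CPM of 1 were left out. Its range on leaving out single libraries was -0.43 to 0.18. Pdgfra changed sign to -0.047 without wild-type replicate 3, in a range of -0.047 to 0.33.

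The log2 ratio difference of Cxcr4 over Cxcl12 ranged from -0.72 to 0.22, and that of Pdgfra over Pdgfa from -0.34 to 0.26, on leaving out single libraries; both change sign, at 0.22, 0.04 and 0.26. In the mesoderm list 1 gene rose with limma-voom and both limma-trend fits on TPM, and leaving out single libraries gave 0 to 1 higher and 4 to 10 lower. In the list of ligand processing and other partners 2 genes rose with a minimum mean log2 CPM of 1, and 2 to 6 fell on leaving out single libraries. The cause of these shifts was not tested.

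Ts1Cje and wild-type samples share lot numbers 1 to 3. The deviations of same-numbered samples from their group means correlated at 0.22, 0.059 and 0.20 across genes, so the numbers were not taken as pairs, although every sample correlated best with its own number. With the lot as a replicate block 2 of the 9 genes were called higher, as Apln passed (1.04, adjusted p = 0.0328), Aplnr did not (-1.46, 0.0830), and 4361 and 3965 genes of the whole table were called higher and lower. Depth limits Pdgfrb in Ts1Cje, with 37 to 65 counts per library.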
